A study of Mus musculus with 9 samples.

Results

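Ccr1, Ccr2, Ccr8, Cxcr3, Cxcr4, Cxcr6, Cx3cr1 and Ccrl2 encode receptors that guide leukocytes into and through inflamed tissue. They were taken by symbol from the expression table, and make 8 of its 23366 genes. The lymph node receptor Ccr7 was kept apart from them. The libraries came from CD8+ T cells that had infiltrated B16F10 tumours, a transplantable mouse melanoma, in C57BL/6 hosts. 5 libraries were from wild-type (WT) mice and 4 from mice carrying a knockout of IL27ra, the gene of the receptor chain specific to the cytokine IL-27 (IL27ra KO). The labels name no drug or other agent in either group, and mouse age, the exons removed and the number of mice pooled per library were not stated. Nothing in the labels says that the knockout was limited to T cells, and libraries of a group were treated as separate samples, so p-values measure the spread between these samples, which may be technical. RNA from lysates of bulk cells was amplified by an adaptation of SMART-Seq 2, which copies whole polyadenylated transcripts, and the values are FPKM, fragments per kilobase of transcript scaled to library size, a level that takes gene length into account.

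Chemokines are small secreted proteins, and their receptors are G protein-coupled proteins with a membrane-spanning bundle of helices that signal mainly through inhibitory G proteins to turn a cell towards the source. CCR2 carries monocytes out of the bone marrow and into tissue, and CCR1 is used by monocytes and neutrophils. CXCR3 and CXCR6 are the receptors best known on activated CD8 T cells in tumours, CXCR4 is shared by most leukocytes, and CX3CR1 marks differentiated effector T cells as well as monocytes and macrophages. CCR8 is found on regulatory T cells of tumours and on skin-homing T cells. CCRL2 is an atypical receptor that binds the chemoattractant chemerin without a classical G protein signal.

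The targeted gene and the cell markers were read first. Il27ra stood at 25.74, 5.14, 15.24, 14.43 and 15.79 FPKM in WT replicates 1 to 5 and at 4.09, 6.50, 5.62 and 7.80 FPKM in IL27ra KO replicates 1 to 4. The library labelled WT replicate 2 therefore lay inside the knockout range, and the difference in log2(FPKM + 1), knockout minus WT, was -1.10 (SE 0.34, adjusted p = 0.0996 by limma). Which exons the knockout removes is not stated, so the remaining FPKM check the labels only in part. In both groups the CD8 T cell identity list (Cd3 chains, Cd8a, Cd8b1 and the like, 16 genes) was present, at a summed 1164 to 1820 FPKM in WT and 544 to 1430 FPKM in the knockout. A list of 19 macrophage genes summed to 76.8 to 374 FPKM in WT and to 491 to 1737 FPKM in the knockout. None of the 19 was at 0 throughout, and 18 of the 18 tested genes rose, beside 3.13% of all genes tested. Some, such as Mrc1 at a WT mean of 0.87 FPKM, reached the tested mean of 1 FPKM only through the knockout. IL27ra KO replicate 4 had the lowest macrophage sum of its group and the highest CD8 identity sum. Both that library and the library labelled WT replicate 2, which had the highest macrophage sum of WT, were left out together. This setting was chosen after the data were seen, and its values stand beside the results below. Because these 2 libraries lie nearest the other group in macrophage sum, leaving them out widens that contrast by choice and is no independent check. Both are called doubted below, IL27ra KO replicate 4 for its marker sums and not for its label. In bulk samples, fewer cells of a type and less RNA per cell cannot be told apart.

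Ccr2 and Ccr1 were higher in the knockout and Ccr8 was lower. All 8 receptors passed the filter of a mean of at least 1 FPKM, and 3 of the 8 passed the test, at a Benjamini-Hochberg adjusted p under 0.05 in a limma fit of log2(FPKM + 1) over 10374 genes. Among all genes tested 4.24% passed, 3.13% as higher and 1.11% as lower in the knockout. The median difference of the 8 receptors was -0.07 on the log2 scale, beside 0.02 over all genes tested. For those 3 receptors, and for no other of the 8, every knockout value lay outside the WT range, beside 6.73% of all genes. The plot of receptor values by library and the plot of their differences show both views.

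**Figure D1:**
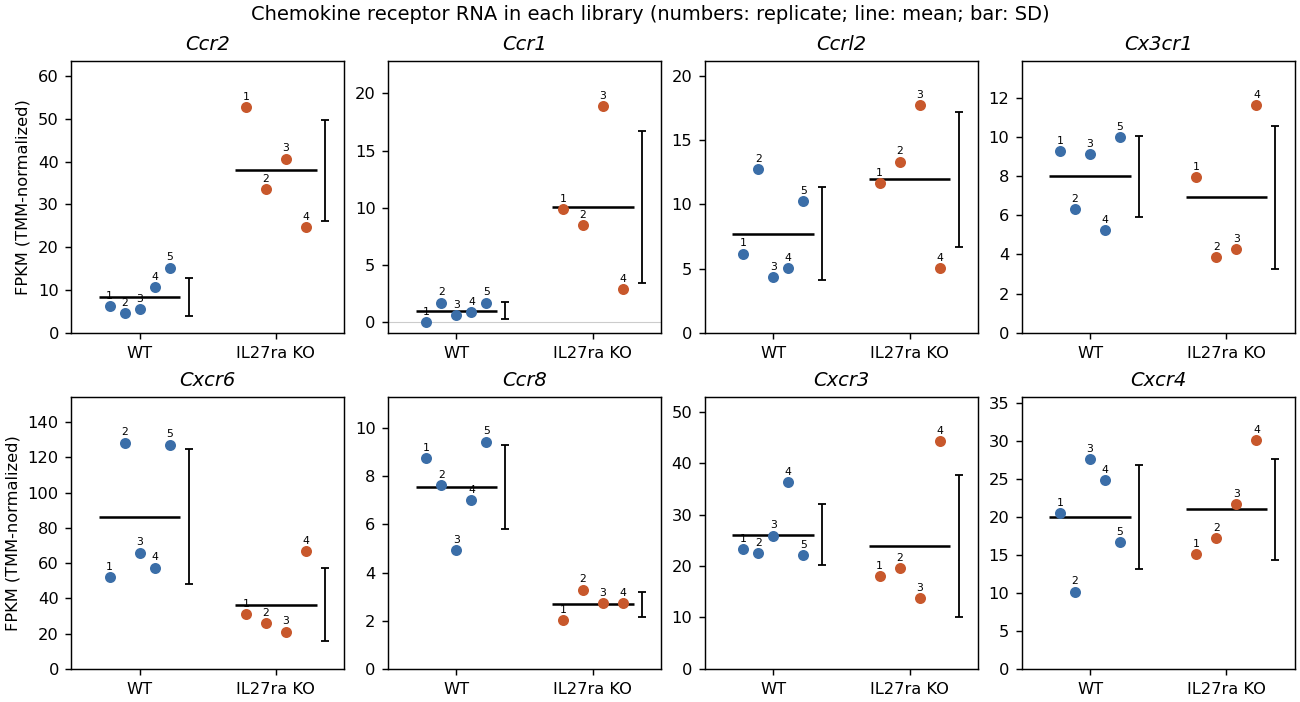
FPKM of each receptor in every library, with WT and IL27ra KO side by side, a numbered point for each library, a line for the group mean and a bar beside it for the mean ± SD. Ccr1 and Ccr2 are higher in all 4 knockout libraries than in any WT library, Ccr8 is lower in all 4, and the other receptors overlap.

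**Figure D2:**
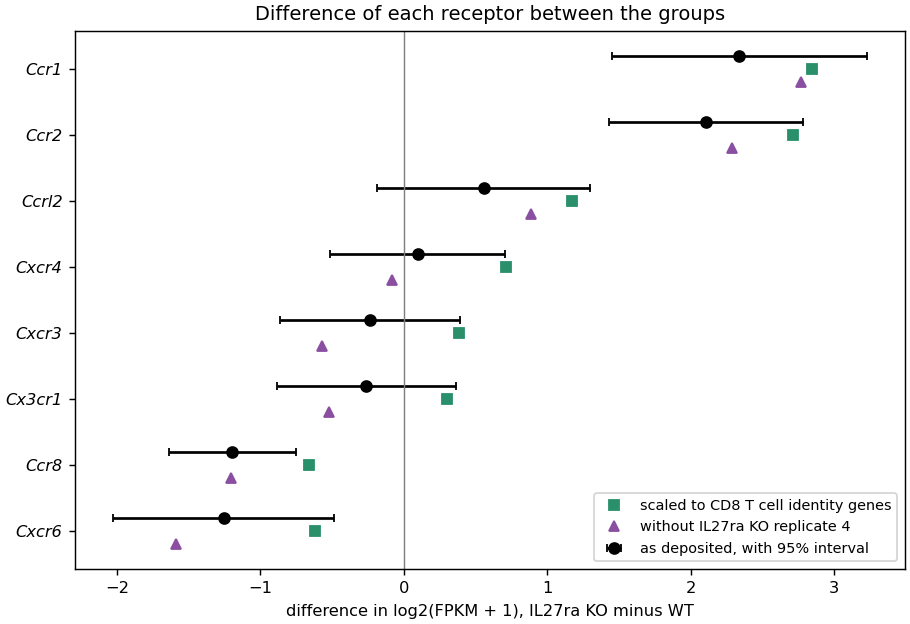
Difference in log2(FPKM + 1), IL27ra KO minus WT, for each receptor, as a circle with its 95% confidence interval, with squares for libraries scaled to the CD8 identity genes and triangles for the fit without IL27ra KO replicate 4. Ccr1 at 2.34 and Ccr2 at 2.11 lie to the right of 0 and Ccr8 at -1.20 lies to the left, while the intervals of Cxcr3, Cxcr4, Cx3cr1 and Ccrl2 span 0.

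Promoter sequence is given for the 3 receptors that passed, Ccr1, Ccr2 and Ccr8, and for Cxcr6, which had the highest mean in WT but did not pass. Each is 250 bases before to 50 bases after the start in RefSeq (GRCm38.p6), written 5′ to 3′ on the gene's own strand, and all 8 receptors had an entry. Ccr1 is at chr9:123968643-123968942 on the minus strand, Ccr2 at chr9:124101933-124102232, Ccr8 at chr9:120091883-120092182 and Cxcr6 at chr9:123806227-123806526, the last 3 on the plus strand. Capitals mark matches to the motifs described after the sequences.
Ccr2: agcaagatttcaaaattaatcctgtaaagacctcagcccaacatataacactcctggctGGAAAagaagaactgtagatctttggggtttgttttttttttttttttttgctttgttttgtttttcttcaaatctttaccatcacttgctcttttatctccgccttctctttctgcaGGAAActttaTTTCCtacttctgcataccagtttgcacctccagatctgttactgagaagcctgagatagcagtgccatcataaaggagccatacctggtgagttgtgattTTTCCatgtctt
Ccr1: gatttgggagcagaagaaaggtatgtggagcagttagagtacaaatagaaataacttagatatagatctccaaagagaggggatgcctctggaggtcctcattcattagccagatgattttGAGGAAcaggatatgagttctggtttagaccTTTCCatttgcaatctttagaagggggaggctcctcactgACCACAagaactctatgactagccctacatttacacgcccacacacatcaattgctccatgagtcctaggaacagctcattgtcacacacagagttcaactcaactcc
Ccr8: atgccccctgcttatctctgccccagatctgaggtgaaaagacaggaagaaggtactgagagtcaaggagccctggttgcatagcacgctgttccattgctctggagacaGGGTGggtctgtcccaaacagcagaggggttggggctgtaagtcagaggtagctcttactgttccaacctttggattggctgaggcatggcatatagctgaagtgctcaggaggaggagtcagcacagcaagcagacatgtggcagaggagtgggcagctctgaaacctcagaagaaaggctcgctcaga
Cxcr6: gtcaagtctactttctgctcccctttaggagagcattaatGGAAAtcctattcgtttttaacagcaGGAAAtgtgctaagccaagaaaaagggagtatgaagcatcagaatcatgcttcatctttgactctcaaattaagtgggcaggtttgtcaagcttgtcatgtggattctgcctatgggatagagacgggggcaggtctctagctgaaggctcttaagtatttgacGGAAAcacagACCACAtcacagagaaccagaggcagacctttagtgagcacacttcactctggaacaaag

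The motifs were searched on both strands, and a base may belong to more than one match. GAGGAA, a core bound by the myeloid factor PU.1, was in 28.3% of 32851 promoters of the same length. It was in 2 of the 8 receptors, once each in Ccr1 and Cxcr3. TGTGGT, read for RUNX factors, was in 16.8% of promoters and in 4 of the 8 receptors. It occurred once each in Ccr1, Cxcr6 and Cx3cr1 and 2 times in Cxcr3. CACCC, a core of KLF factors, was in 57.5% and in 4 of the 8 receptors, and was the only motif marked in Ccr8. GGAAA, a core of NFAT, was in 61.3% and in 6 of the 8 receptors, among them 4 times in Ccr2, 3 times in Cxcr6 and once in Ccr1. TTCNNNGAA, the form bound by STAT dimers downstream of receptors such as that of IL-27, was in 8.3% of promoters and in 0 of the 8 receptors. TGANTCA, the AP-1 form, was in 7.81% of promoters and likewise in 0 of the 8, and GGTGTGA, the T-box form, was in 3.98% of promoters and in 1 receptor, Ccrl2. These are matches of letters in a short window and were not tested as sites.

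Ccr2, the receptor for CCL2, CCL7 and CCL12, stood at 6.19, 4.63, 5.54, 10.62 and 15.24 FPKM in the WT libraries and at 52.75, 33.58, 40.69 and 24.66 FPKM in the knockout libraries. Every knockout library was above every WT library. The group means were 8.44 ± 4.44 FPKM (SD, n = 5) and 37.9 ± 11.9 FPKM (SD, n = 4), a ratio of 4.49. On the log2(FPKM + 1) scale Ccr2 rose by 2.11 (SE 0.31, 95% confidence interval 1.43 to 2.79, adjusted p = 0.0020 by limma). It passed the test in each of the 9 fits that left out 1 library, and the difference was 2.14 with both doubted libraries left out (adjusted p = 0.0010 by limma).

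Ccr1, a receptor for CCL3, CCL5, CCL6, CCL7 and CCL9, was low in the WT libraries, at 0.00, 1.71, 0.60, 0.90 and 1.71 FPKM, and stood at 9.88, 8.48, 18.90 and 2.85 FPKM in the knockout libraries. The groups did not overlap, and IL27ra KO replicate 4 was the lowest of its group. Read spacing in the table put these levels at 0 to 19.6 fragments in WT and 27.9 to 135 fragments in the knockout, so the WT values rest on few fragments. Ccr1 rose by 2.34 (SE 0.41, 95% confidence interval 1.45 to 3.23, adjusted p = 0.0052 by limma), and by 2.91 with both doubted libraries left out (adjusted p = 0.00042 by limma). It passed in 9 of 9 fits without 1 library. Its WT mean of 0.98 FPKM was below the filter, which it passed through the knockout libraries.

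Macrophage genes moved with both. The 19-gene macrophage list had a mean log2(FPKM + 1) of 1.18, 2.72, 1.28, 2.00 and 2.44 in the WT libraries and of 4.97, 4.68, 5.13 and 3.58 in the knockout libraries, with no overlap. Csf1r, the receptor for the macrophage growth factor CSF-1, was at 0.22 to 4.01 FPKM in WT and at 10.99 to 49.03 FPKM in the knockout. Of 9 monocyte genes 7 rose, and of 6 tested dendritic cell genes 5 rose, beside 3.13% of all genes tested. The 5 were Itgax, Cd209a, Clec10a, Cd74 and H2-Ab1. Zbtb46 differed by -0.25 and did not pass, and Flt3, Clec9a, Batf3, Siglech and Ccl22 were too low to test. Summed levels were 257 to 677 against 476 to 735 FPKM for the monocyte list and 16.6 to 318 against 297 to 1359 FPKM for the 11-gene dendritic cell list. Most of the monocyte sum in every library came from Ly6c2 and Plac8, which did not pass. Ly6c2 was at 189 to 328 FPKM in WT and 245 to 568 FPKM in the knockout. Plac8 was at 38.6 to 391 FPKM in WT and 68.5 to 116 FPKM in the knockout, and differed by -0.35. Neutrophil genes were low, at a sum of 0.52 to 2.65 FPKM in WT and 3.11 to 4.16 FPKM in the knockout, with Retnlg and Camp at 0 in every library. Summed levels of the melanoma, NK cell and B cell lists overlapped between the groups.

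The receptors were then set against the marker lists within each library. Ccr1 minus the macrophage mean (log2 scale) ranged from -1.29 to -0.60 in WT and from -1.64 to -0.81 in the knockout, so the groups overlapped. Ccr2 minus the macrophage mean ranged from -0.23 to 1.66 in WT and from 0.25 to 1.10 in the knockout, again overlapping. Minus the CD8 identity mean, Ccr2 ranged from -3.84 to -2.04 in WT and from -1.45 to 0.92 in the knockout, and Ccr1 also did not overlap. With the macrophage mean as a covariate the difference of Ccr2 was 1.08 (adjusted p = 0.572 by limma) and that of Ccr1 was -0.44 (adjusted p = 0.755 by limma). Over 22 alternatives the adjusted p of limma ranged from 0.00015 to 0.572 for Ccr2 and from 0.00024 to 0.755 for Ccr1. That covariate splits the libraries almost as the genotype does, and only 4 genes of the whole table passed with it. The part of the myeloid RNA in the rise of both receptors cannot be told apart from the genotype here.

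**Figure D3:**
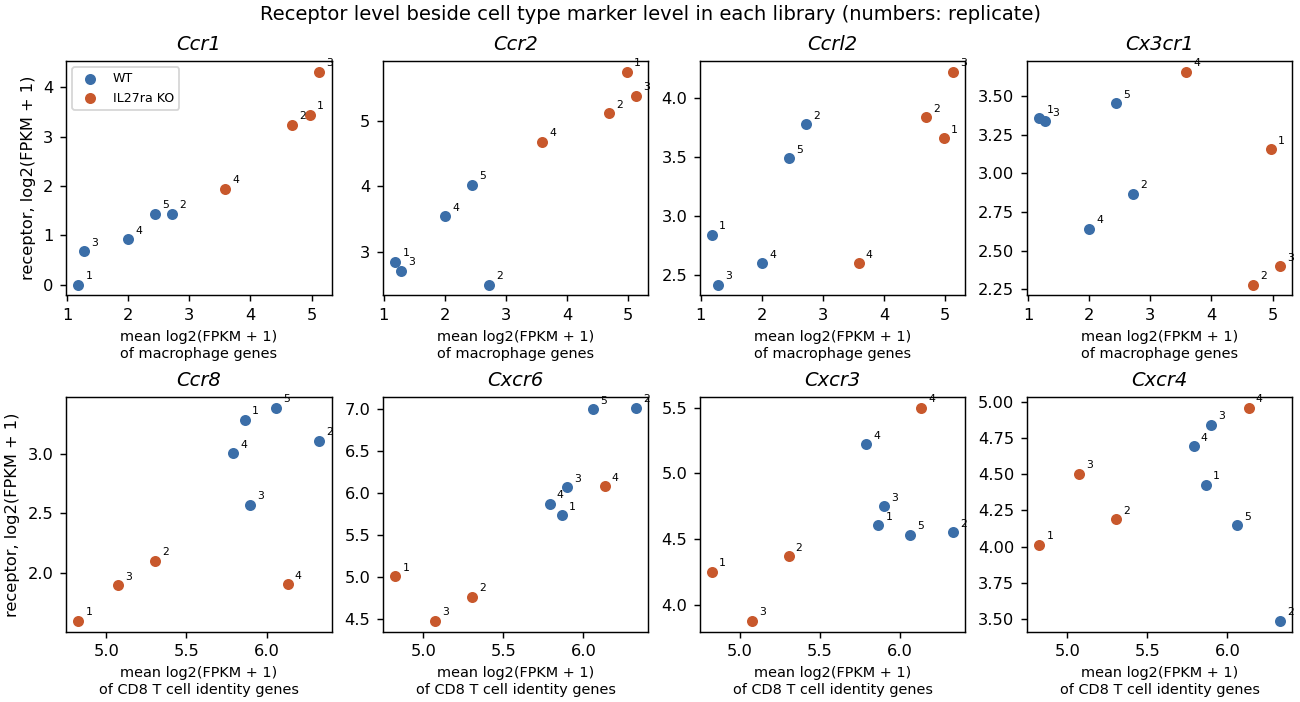
Log2(FPKM + 1) of each receptor by library, for Ccr1, Ccr2, Ccrl2 and Cx3cr1 against the library's mean log2(FPKM + 1) of macrophage genes and for Ccr8, Cxcr6, Cxcr3 and Cxcr4 against that of CD8 T cell identity genes, with WT in blue and IL27ra KO in orange. The knockout libraries lie between 3.58 and 5.13 on the macrophage axis and the WT libraries between 1.18 and 2.72, and Ccr1 and Ccr2 are higher on the side of the knockout. In the lower row IL27ra KO replicate 4 lies among the WT libraries on the CD8 axis but has Ccr8 at the level of the other knockout libraries.

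Ccr8, the receptor for CCL1 and CCL8, was at 8.74, 7.62, 4.94, 7.01 and 9.44 FPKM in the WT libraries and at 2.02, 3.29, 2.72 and 2.74 FPKM in the knockout libraries. All 4 knockout libraries were below all 5 WT libraries and close to each other. The means were 7.55 ± 1.74 FPKM (SD, n = 5) and 2.69 ± 0.52 FPKM (SD, n = 4), 2.80 times higher in WT. Ccr8 fell by 1.20 on the log2 scale (SE 0.21, 95% confidence interval -1.64 to -0.75, adjusted p = 0.0045 by limma), in all 9 fits without 1 library and at -1.20 with both doubted libraries left out. The inferred fragments were 10.2 to 44.9 in WT and 8.07 to 13.1 in the knockout.

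The call on Ccr8 depended on the scale. With every library scaled to the same total, which moved the median difference of all genes from 0.02 to 0.29, its difference was -0.94 (adjusted p = 0.0525 by limma), and with libraries scaled to the CD8 identity genes, which moved that median to 0.57, it was -0.66 (adjusted p = 0.129 by limma). Adjusted p ranged from 0.00070 to 0.333 over its 22 alternatives. Minus the CD8 identity mean, Ccr8 ranged from -3.33 to -2.58 in WT and from -4.23 to -3.18 in the knockout, and IL27ra KO replicate 4, which had the highest CD8 identity level of its group, was the lowest. Cd3e and Cd8a were the 2 of 16 identity genes that fell, beside 1.11% of all genes tested, and the list's median difference was -0.66. Their part in the lower Ccr8 was not tested.

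Ccr8 is also a gene of regulatory T cells, so their genes stand beside it. Foxp3, their lineage factor, was at 5.53, 0.00, 2.56, 1.16 and 4.70 FPKM in WT and at 0.54, 0.52, 1.07 and 0.55 FPKM in the knockout, with overlapping groups (log2 difference -0.90, adjusted p = 0.369 by limma). Ccr8 in the same WT libraries, in the same order, was at 8.74, 7.62, 4.94, 7.01 and 9.44 FPKM. The part of regulatory T cells in the level of Ccr8 was not tested. Of the 3 tested genes of CD4 and regulatory T cells 1 rose, Cd40lg, beside 3.13% of all genes tested. Cd4, the coreceptor of helper and regulatory T cells, was at most 0.45 FPKM in any library. Il2ra, the high-affinity IL-2 receptor chain, was at 2.04 to 5.03 FPKM in WT and at 1.30 to 2.72 FPKM in the knockout, and did not pass (adjusted p = 0.110 by limma).

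Cxcr6, the receptor for the membrane-bound chemokine CXCL16, had the highest mean of the 8 in WT. It was at 52.16, 128.41, 66.03, 57.42 and 127.23 FPKM in the WT libraries and at 31.18, 26.13, 21.19 and 66.74 FPKM in the knockout libraries. 3 knockout libraries were below every WT library, and IL27ra KO replicate 4 lay above 3 of the WT libraries. The means were 86.3 ± 38.3 FPKM (SD, n = 5) and 36.3 ± 20.7 FPKM (SD, n = 4). The difference of -1.26 (SE 0.36, 95% confidence interval -2.03 to -0.49) did not pass (adjusted p = 0.0711 by limma).

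The call on Cxcr6 depended on IL27ra KO replicate 4 and on the processing. Without that library the difference was -1.59 (adjusted p = 0.0116 by limma), and with both doubted libraries left out it was -1.42 (adjusted p = 0.0085 by limma). Quantile normalisation gave -1.21 (adjusted p = 0.0417 by limma) and library quality weights gave -1.37 (adjusted p = 0.0068 by limma). Equal totals gave -0.93 (adjusted p = 0.151 by limma) and scaling to the CD8 identity genes gave -0.62 (adjusted p = 0.153 by limma). Over its 22 alternatives the adjusted p ranged from 0.0068 to 0.584, and 4 of them passed. Minus the CD8 identity mean, Cxcr6 ranged from -0.13 to 0.94 in WT and from -0.60 to 0.18 in the knockout.

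Cxcr3, which binds the interferon-induced chemokines CXCL9, CXCL10 and CXCL11, was at 23.34, 22.46, 25.91, 36.32 and 22.17 FPKM in WT and at 18.03, 19.66, 13.70 and 44.21 FPKM in the knockout. The first 3 knockout libraries were below every WT library and IL27ra KO replicate 4 was the highest of all 9. The difference was -0.23 (SE 0.29, 95% confidence interval -0.86 to 0.39, adjusted p = 0.791 by limma), and it was -0.61 with both doubted libraries left out (adjusted p = 0.0911 by limma, within 0.0911 to 0.986 over its alternatives). Its sign depended on the scale, at 0.084 with equal totals and 0.39 scaled to the CD8 identity genes.

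Cxcr4, the receptor for CXCL12, was at 20.53, 10.20, 27.69, 24.91 and 16.71 FPKM in WT and at 15.13, 17.26, 21.68 and 30.14 FPKM in the knockout. The groups overlapped over most of their range, with a difference of 0.10 (SE 0.28, 95% confidence interval -0.51 to 0.71, adjusted p = 0.923 by limma). The sign turned to -0.11 without the library labelled WT replicate 2, which had the lowest value of all 9.

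Cx3cr1, the receptor for fractalkine (CX3CL1), was at 9.26, 6.31, 9.12, 5.24 and 9.97 FPKM in WT and at 7.93, 3.85, 4.27 and 11.64 FPKM in the knockout. IL27ra KO replicate 4 was again the highest of all 9, and the groups overlapped. The difference was -0.26 (SE 0.29, 95% confidence interval -0.88 to 0.36, adjusted p = 0.756 by limma), and 0.30 when scaled to the CD8 identity genes.

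Ccrl2 was at 6.16, 12.73, 4.33, 5.05 and 10.23 FPKM in WT and at 11.66, 13.32, 17.71 and 5.05 FPKM in the knockout. The library labelled WT replicate 2 was higher than IL27ra KO replicate 1, and IL27ra KO replicate 4 shared its value with WT replicate 4. The difference was 0.56 (SE 0.34, 95% confidence interval -0.18 to 1.30, adjusted p = 0.508 by limma). With those 2 doubted libraries left out together it was 1.07 (adjusted p = 0.0247 by limma, within 0.0247 to 0.847 over its alternatives). Minus the macrophage mean, Ccrl2 was at 0.59 to 1.66 in WT and at -1.31 to -0.84 in the knockout.

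The receptors differed widely in level, and the order differed between the groups. In WT the order of mean FPKM was Cxcr6, Cxcr3, Cxcr4, Ccr2, Cx3cr1, Ccrl2, Ccr8 and Ccr1. Between neighbours in that order only Cxcr6 and Cxcr3, and Ccr8 and Ccr1, had ranges that did not overlap. In the knockout it was Ccr2, Cxcr6, Cxcr3, Cxcr4, Ccrl2, Ccr1, Cx3cr1 and Ccr8, where only Cx3cr1 and Ccr8 did not overlap. The 8 summed to 126 to 213 FPKM in WT and to 126 to 188 FPKM in the knockout.

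Within that sum, Cxcr6 held 38.9% to 66.2% in the WT libraries and was the highest receptor in 5 of 5. Ccr2 held 2.39% to 7.20% there. In the first 3 knockout libraries Ccr2 was the highest receptor, with 35.5%, 26.7% and 28.9% of the sum. IL27ra KO replicate 4 kept Cxcr6 on top at 35.5%, with Ccr2 at 13.1%. The ratio of Ccr2 to Cxcr6 was 0.0361 to 0.185 in WT and 0.369 to 1.92 in the knockout, with no overlap. Some other ratios overlapped. Ccr8 over Cxcr6 was 0.0593 to 0.168 in WT and 0.0411 to 0.128 in the knockout, and Ccr1 over Ccr2 was 0 to 0.369 and 0.116 to 0.464. Ccr8 over Cxcr3 overlapped narrowly, at 0.191 to 0.426 in WT and 0.0620 to 0.199 in the knockout. Cxcr6 over Cxcr3 was 1.58 to 5.74 in WT and 1.33 to 1.73 in the knockout.

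**Figure D4:**
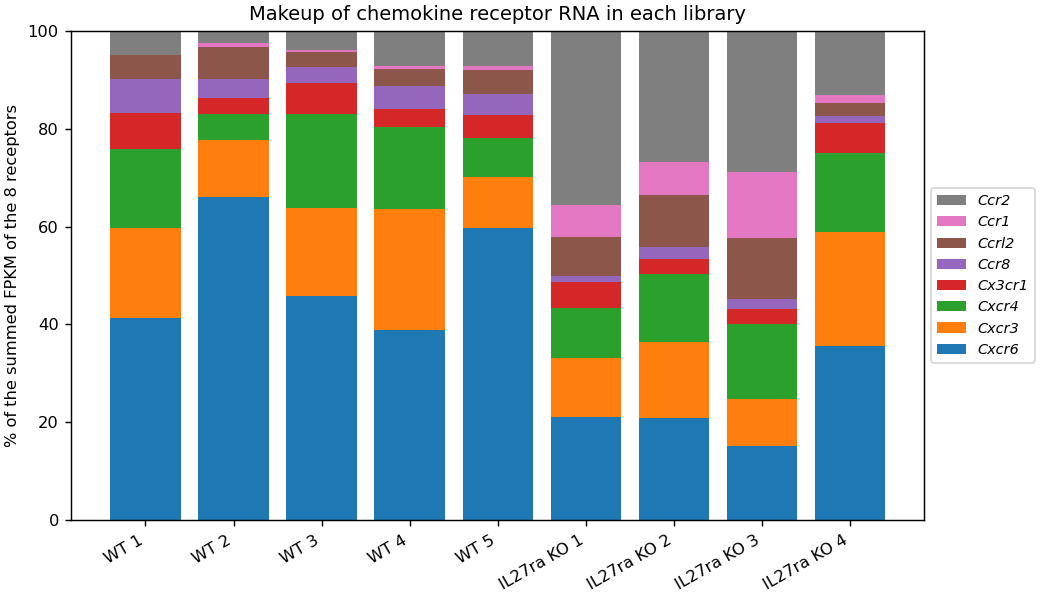
Share of the summed FPKM of the 8 receptors held by each receptor, 1 bar per library. Cxcr6 takes the largest share of all 5 WT bars and of IL27ra KO replicate 4, and Ccr2 takes the largest share of the other 3 knockout bars.

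The ligands of these receptors were measured in the same libraries. The table holds 17 ligand genes. Of these, 12 passed the filter, 5 rose and 2 fell, beside 3.13% and 1.11% of all genes tested. The 5 were Ccl2, Ccl7 and Ccl12, ligands of CCR2, and Ccl6 and Ccl9, ligands of CCR1. Ccl12, at 0.54 to 2.72 FPKM in WT and 9.66 to 22.75 FPKM in the knockout, rose by 2.58, and Ccl2 rose by 3.49, Ccl7 by 3.93, Ccl6 by 3.92 and Ccl9 by 3.01 on the log2 scale. Ccl9 did not pass without any 1 of IL27ra KO replicates 1, 2 and 3, and all 5 missed the threshold with the macrophage covariate.

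Ccl1, the specific ligand of CCR8, was at 1.72, 12.21, 27.12, 1.69 and 20.65 FPKM in WT and at 1.54, 0.58, 0.00 and 0.57 FPKM in the knockout. The groups did not overlap, though 2 WT libraries were close to the highest knockout value. Ccl1 fell by 2.51 (adjusted p = 0.043 by limma) and, with 1 library left out, passed only without WT replicate 1 or 4, with adjusted p between 0.0126 and 0.435 over its alternatives. Ccl3, a ligand of CCR1 made by activated CD8 T cells, was at 30.75 to 283.73 FPKM in WT and at 25.50 to 29.38 FPKM in the knockout. It fell by 1.79 (adjusted p = 0.035 by limma) and, with 1 library left out, passed only without WT replicate 4 or the library labelled WT replicate 2.

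Other ligands did not pass. Cxcl16, the ligand of CXCR6, was at 1.49 ± 0.97 FPKM (SD, n = 5) in WT and 7.61 ± 4.95 FPKM (SD, n = 4) in the knockout (difference 1.63, adjusted p = 0.058 by limma). Ccl8 differed by 2.32, Ccl4 by -1.43, Cxcl10 by 0.58 and Ccl5 by -0.44. Cxcl9, Cxcl11 and Cx3cl1 were too low to test, and Cxcl12 and Rarres2, the gene of chemerin, were listed at 0 in all 9 libraries.

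A list of 21 other chemokine receptor symbols had 17 in the expression table and 7 tested genes. Of the 7, 2 rose, beside 3.13% of all genes tested, and the other 5 did not pass. Those that rose, Ccr4 and Cmklr1, had WT means of 0.24 and 0.38 FPKM and passed the filter only through the knockout. Ccr4, a receptor of helper and skin-homing T cells, was at 0.00 to 0.61 FPKM in WT and at 0.37, 2.53, 3.11 and 2.41 FPKM in the knockout, and rose by 1.24 (adjusted p = 0.042 by limma). Cmklr1, the signalling receptor for chemerin, was at 0.00 to 0.78 FPKM in WT and at 5.56, 1.03, 5.96 and 1.12 FPKM in the knockout, and rose by 1.47 (adjusted p = 0.045 by limma). With 1 library left out, Ccr4 passed only without WT replicate 3 or IL27ra KO replicate 1, and Cmklr1 only without IL27ra KO replicate 2 or 4. Ccr7, the lymph node homing receptor, differed by 0.045, Ccr9 by 0.29, Cxcr2 by 0.16 and Cxcr5 by -0.40, and none of these passed.

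Downstream of the receptors, 25 tested genes of G proteins, arrestins, receptor kinases, RGS proteins and migration kinases gave 1 call. That stands beside 4.24% of all genes tested. Rgs16, which shortens G protein signals, was at 61.21, 103.16, 62.57, 31.40 and 146.78 FPKM in WT and at 7.76, 6.64, 10.78 and 5.92 FPKM in the knockout. It fell by 3.07 (SE 0.36, adjusted p = 0.00056 by limma), in 9 of 9 fits without 1 library. The other 24 did not pass, among them Gnai2, the main inhibitory G protein subunit of leukocytes, at -0.79 (adjusted p = 0.245 by limma), and Rgs1 at -0.51 (adjusted p = 0.537 by limma).

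A list of transcription factors and surface proteins tied to migrating effector cells or to tissue residence gave 3 calls of 18 tested. The other 15 did not pass, and 4.24% of all genes tested did. Klf2, which maintains the receptors for leaving tissue, was at 7.76 to 15.02 FPKM in WT and at 18.54 to 27.66 FPKM in the knockout, and rose by 1.17 (adjusted p = 0.0077 by limma). Zeb2, a factor of terminal effector cells that macrophages also express, rose by 1.17 (adjusted p = 0.038 by limma) and, with 1 library left out, passed only without WT replicate 3, WT replicate 4 or IL27ra KO replicate 4. Prdm1, the gene of Blimp-1 and a factor of resident and exhausted cells, was at 4.97 to 16.41 FPKM in WT and at 2.21 to 4.50 FPKM in the knockout. It fell by 1.30 (adjusted p = 0.016 by limma), but missed the threshold without IL27ra KO replicate 1 (adjusted p = 0.0712 by limma, within 0.0031 to 0.439 over its alternatives).

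For each receptor, the genes of most similar pattern were taken as those with the smallest mean absolute difference of centred log2(FPKM + 1) over the 9 libraries, among 5721 genes. Picked as the nearest, they lie below the median by construction. The centring keeps the difference between the groups, so a receptor that differs draws genes that differ in the same direction. For Ccr1 they were C5ar1 (0.227), Gda (0.261) and AI607873 (0.265), beside a median of 1.20 over all genes compared. For Ccr2 they were Sepp1 (0.297), Adam15 (0.302) and Fgr (0.305), beside 1.07. C5ar1 is the receptor for the complement fragment C5a and Fgr a Src family kinase of myeloid cells. For Ccr8 they were Rabgap1l (0.167), Arl14ep (0.191) and Mmd (0.237), beside 0.63.

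For Cxcr6 the nearest were Sh2d2a (0.181), which encodes a T cell adaptor, Cd82 (0.215) and Nkg7 (0.222), a gene of cytotoxic granules. For Cxcr3 they were Zfp36l2 (0.138), Ncor1 (0.159) and Bcl11b (0.161), the last a T cell identity factor, and for Cxcr4 Hivep2 (0.0901), Zc3hav1 (0.0928) and Dgka (0.109). For Cx3cr1 they were Dnajc30 (0.208), Fmnl1 (0.209) and Acap1 (0.228), and for Ccrl2 Plk2 (0.140), Ehd4 (0.208) and Srsf9 (0.213). All are differences of pattern over the same 9 libraries and share their depth and composition.

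By position, 6 of the 8 receptors are on chromosome 9, with Cxcr4 on chromosome 1 and Cxcr3 on chromosome X (gene order from RefSeq GRCm38.p6). Cx3cr1 is next to Ccr8 and differed by -0.26 where Ccr8 fell by 1.20. Ccr1 and its neighbour Ccr1l1 are similar in sequence, and estimated counting may split reads between such copies, so the level of Ccr1 is uncertain to that extent, as is that of Ccr2, which also has close relatives. Ccr1l1 was listed at 0 in all 9 libraries. In the stretch of the chromosome from Ccrl2 to Cxcr6, 61 genes were tested, of which Ccr4 rose and Oxsr1 and Ccr8 fell, 4.92% beside 4.24% of all genes.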

How the data were processed

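The table holds FPKM for 23366 gene symbols in 9 libraries. The deposited FPKM were TMM-normalised RSEM estimates, per the labels, and TopHat, RSEM, DESeq and mm9 are named without roles in the submitters' processing notes. As relative values, FPKM move with the composition of a library. The read depth was not stated. The spacing of low FPKM in 4760 single-transcript genes (GENCODE M21), where 64.1% to 71.3% of low values lay within 0.1 of a whole fragment against 20% if evenly spread, implied 1760000 to 4050000 fragments per library. Rn45s, a ribosomal RNA gene, took 23.9% to 53.8% of the FPKM total, with the highest shares in WT replicates 3 and 4. It is part of the total used for scaling to equal totals.

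The 10374 genes averaging at least 1 FPKM over the libraries were fitted as log2(FPKM + 1) by genotype over the 9 libraries in limma 3.58.1 (R 4.3.3, eBayes with trend), with Benjamini-Hochberg adjustment over all of them and a threshold of 0.05. The difference understates changes of genes near the pseudocount of 1. A gene with a mean under 1 FPKM in 1 group passed the filter only through the other group. Counts of rises and falls among low genes therefore lean on the filter. On simulated data, 96.5% of genes changed by 2 log2 units and 34% of those changed by 1 were recovered. 21 alternatives and 1 added after the data were seen were run. Of the symbols, 21732 were current in the reference gene names, the 8 receptors included.

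The receptors and lists were chosen with earlier results of these data known. Named genes were the receptors, Il27ra, every tested ligand and other receptor (1 of which is not reported here), up to 4 called genes per other list by smallest p, the 3 genes nearest each receptor in pattern, and the genes between Cxcr6 and Ccrl2, given as counts since 271 are annotated there. Foxp3, Cd4, Il2ra, Gnai2, Rgs1, Csf1r, Ly6c2 and Plac8 were named after their values were seen, as were the dendritic cell genes Clec10a, Zbtb46, Flt3, Clec9a, Batf3, Siglech and Ccl22. The replicate numbers were not used to pair samples in the main fit.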

Additional observations from a re-analysis of the deposited data

Results flagged for a closer look

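Cxcr3 in WT replicate 4 was 36.32 FPKM, far above the other 4 WT libraries at 22.17 to 25.91 FPKM. Its gap to the nearest of them was 0.736 of the group's whole range, above Dixon's limit of 0.71 for 5 samples. 18 groups were checked this way and 1 was found, and chance gives about 1 in 20. Without that library the difference of Cxcr3 was -0.11 rather than -0.23 and did not pass.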

How the results depend on the processing

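Ccr1 and Ccr2 passed under 21 of 22 alternatives each and Ccr8 under 19. Of all genes, 440 passed (325 higher, 115 lower). The counts were 219 (155 and 64) with a filter at 5 FPKM, 936 (886 and 50) scaled to the CD8 identity genes, 974 (632 and 342) with library quality weights, 273 (56 lower) with the replicate block, 4 (0 and 4) with the macrophage covariate and 868 (555 and 313) with both doubted libraries left out. Equal totals gave 525 higher and 65 lower. Leaving out 1 library gave 226 to 632 (169 to 448 and 57 to 184). The cause was not tested.

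Of the receptors, 3 passed (2 higher, 1 lower), and 3 to 4 without 1 library (1 to 2 lower). The number lower was 2 with quantile normalisation, with quality weights and without IL27ra KO replicate 4, and 0 with equal totals or CD8 scaling. The macrophage covariate left 0 in all (0 higher, 0 lower), and leaving out both doubted libraries gave 5 (2 lower). The replicate block kept 3. Deviations of same-numbered samples correlated at -0.147 to 0.0027, beside -0.072 to 0.126 for samples of different number. Such weak correlations cannot show whether same-numbered samples were handled together.

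Signs reversed with the macrophage covariate for Ccr1 (-0.44), Cxcr3 (1.02), Cx3cr1 (0.84), Ccrl2 (-1.63), Il27ra (0.64), Cxcr5 (0.73), Cmklr1 (-0.17), Ccl2 (-0.95), Ccl5 (0.12), Ccl6 (-0.26), Ccl8 (-0.15), Ccl9 (-1.72), Cxcl16 (-1.44), Ms4a6c (-0.34), Cd74 (-2.04), Cd209a (-1.24) and H2-Ab1 (-2.73). They reversed with CD8 scaling for Cxcr3 (0.39), Cx3cr1 (0.30), Cxcr5 (0.024) and Ccl5 (0.21), and with equal totals for Cxcr3 (0.084) and Cx3cr1 (0.022). Cxcr4 was -0.13 with quality weights, -0.11 to 0.23 without 1 library (below 0 without WT replicate 2 or IL27ra KO replicate 4) and -0.29 without both. Ccr7 was -0.023 at equal medians, -0.092 with the replicate block, -0.092 to 0.24 without 1 library (below 0 without WT replicate 5 or IL27ra KO replicate 2 or 4) and -0.013 without both doubted libraries, where Ccr9 was -0.071. Depth limits Ccr1 in WT and Ccr8 in the knockout, which rest on at most 19.6 and 13.1 inferred fragments.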
